A study of Mus musculus with 16 samples.

Results

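Genes of the ATF4 arm of the integrated stress response were followed in dopaminergic neurons of the substantia nigra pars compacta (SNc) in mice labelled as carrying a conditional knockout (KO) of the mitochondrial calcium uniporter (MCU) and in control mice. There were 10 such genes, chosen by name and found by their Ensembl identifiers among the 25006 genes listed in every count file: the transcription factors Atf4, Atf5 and Ddit3, the enzymes Asns, Phgdh, Psat1, Shmt2 and Mthfd2, and the regulators Trib3 and Chac1. In the study, messenger RNA bound to tagged ribosomes was purified from the substantia nigra of 16 mice at postnatal day 45, 8 of the genotype DAT-Cre +/- (control) and 8 of the genotype DAT-Cre+/- MCU fl/fl (MCU-KO). All mice of both groups carried the Cre recombinase, which is expressed from the dopamine transporter gene (Slc6a3), and all were given, 30 days before tissue was taken, a virus that makes Cre-positive cells express a tagged ribosomal protein (Rpl22l1-Myc-DDK, the RiboTag). The floxed Mcu alleles were present only in the MCU-KO mice. Per the study's methods the RiboTag controls came from a cross of DAT-Cre+/+ with C57/BL6 mice and not from the breeding that gave the MCU-KO mice, so genotype and breeding line cannot be told apart.

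The integrated stress response is a pathway in which kinases that sense misfolded protein, amino acid shortage, viral RNA or mitochondrial trouble phosphorylate the translation initiation factor eIF2. Most translation then slows, while the messenger RNA of ATF4 is translated more, because short open reading frames ahead of its coding sequence no longer hold ribosomes back. ATF4 pairs with C/EBP proteins and other partners and switches on genes for amino acid import and synthesis, tRNA charging, mitochondrial one-carbon metabolism and, in prolonged stress, cell death. A defect of mitochondrial respiration is a well known trigger of this programme in muscle and in cultured cells. The amount of ribosome-bound Atf4 messenger RNA is not a measure of ATF4 protein. The values of its targets are an indirect reading of its activity, since ribosome-bound RNA depends both on the amount of transcript and on its binding to ribosomes.

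The sequence by which ATF4 recognises its targets was searched in the promoters of these genes, taken from RefSeq (mouse build GRCm38.p6) as the 250 bases before and 50 bases after each gene's start. The motif was TGATGNAA, the core of the C/EBP-ATF response element, read on both strands, so that it appears as TTNCATCA when it lies on the opposite strand. It occurred in 1304 of 32851 promoters (3.97%). All 10 genes had a promoter in the table, 12 promoters in all, and 3 of them, those of Asns, Chac1 and Trib3, held 1 match each. The windows around these matches are shown together with that of the cystine transporter gene Slc7a11, another known ATF4 target, whose promoter held 2 matches. Slc7a11 was already known to differ between the genotypes in these data. Matches in the other genes of the pathway lists below were not counted apart. Any link between the matches and the level of a gene was not tested. Each reads 5′ to 3′ on the gene's own strand, with the matches in capitals.
Asns: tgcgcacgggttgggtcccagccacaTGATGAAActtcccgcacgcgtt
Chac1: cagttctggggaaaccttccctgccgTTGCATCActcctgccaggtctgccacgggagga
Trib3: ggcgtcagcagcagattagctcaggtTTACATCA
Slc7a11: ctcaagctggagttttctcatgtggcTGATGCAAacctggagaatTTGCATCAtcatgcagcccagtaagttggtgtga
The Asns window lies at chr6:7693210-7693258 on the minus strand, with the match 23 to 16 bases before the RefSeq start. The Chac1 window lies at chr2:119351023-119351082 on the plus strand, with the match 193 to 186 bases before the RefSeq start. The Trib3 window lies at chr2:152344039-152344072 on the minus strand, and its match is at bases 15 to 22 past the RefSeq start. In the Slc7a11 window, chr3:50443627-50443705 on the minus strand, the matches lie 66 to 59 and 47 to 40 bases before the start and read toward each other from opposite strands. The gene coordinates given below are those of GENCODE, whose outermost start differs from the RefSeq start by 45 bases for Asns, 13 for Chac1, 28 for Trib3 and 1 for Slc7a11, so that by GENCODE the Asns match lies inside the gene and the Trib3 match before it. A match in these letters is a description of the sequence and not of binding, and sites elsewhere in a gene, such as introns, were not searched.

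Between 18999107 and 22016362 reads were counted in genes per control library and between 14129527 and 20582204 per MCU-KO library, so that 3 counts, the limit that a count of 0 allows, came to 0.136 to 0.212 CPM, the count scaled to a common library size. Such limits cover counting error only. Markers of dopaminergic neurons were abundant in both groups, with the 12 genes summing to 16243 to 20731 CPM in control mice and 13709 to 22544 in MCU-KO mice, and none was at 0 in all mice. RNA of other cells was also present: the 14 astrocyte markers summed to 1074 to 1784 and 1172 to 2045 CPM, and the 10 oligodendrocyte markers to 3020 to 5826 and 3549 to 6884. The 10 microglial markers were scarce, at 85.0 to 241 and 86.2 to 343, and so were the 8 endothelial markers (20.5 to 66.1 and 17.3 to 64.5) and the 8 markers of other neurons (149 to 288 and 130 to 385). No marker of any of these lists passed the test between genotypes. Fold changes for 11 of 14 astrocyte markers, with a median of 0.17, and for 8 of 10 microglial markers, with a median of 0.45, were above 0 on the log2 scale. So were 7 of 10 oligodendrocyte markers (median 0.11) and 5 of 7 tested markers of other neurons (0.24). Only 4 of 12 dopaminergic markers (-0.07) and 0 of 4 tested endothelial markers (-0.55) were. The median astrocyte sum was 1514 CPM in control and 1391 in MCU-KO mice. With an astrocyte marker score as a covariate, 0 of the ATF4 response genes passed the test, as without it. The part of microglial RNA in the results was not tested. In such tissue fewer cells of a type and less RNA per cell cannot be told apart.

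The targeted gene, Mcu (chr10:59446984-59616692, minus strand), was counted over the whole gene and not over the floxed exons alone. Its normalized counts in control mice had a lowest value of 120, a median of 401 and a highest value of 828, and those in MCU-KO mice 5.82, 246 and 410. The median was lower in MCU-KO mice, but the groups overlapped. The log2 fold change was -1.19 (SE 0.59, 95% interval -2.41 to 0.04), which did not pass edgeR's quasi-likelihood test across all genes (unadjusted p = 0.0569, Benjamini-Hochberg adjusted p = 1.00). DESeq2's Wald test gave an unadjusted p of 0.0405 and an adjusted p of 0.794. The study itself checked the knockout by quantitative PCR of Mcu on RiboTag RNA and by imaging of mitochondrial calcium, and reported it as verified.

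None of the ATF4 response genes passed the test between MCU-KO and control mice. Of the 10 genes, 9 were abundant enough to be tested, and of these 0 passed an adjusted p under 0.05 in edgeR's quasi-likelihood test, 0 had an unadjusted p under 0.05, and 0 had groups that did not overlap. DESeq2's Wald test also called 0. Over all 12390 genes tested the same measures gave 22 called genes (0.178%, with 0.0888% higher in MCU-KO mice), 547 genes under the unadjusted threshold (4.41%) and 32 genes with groups that did not overlap (0.258%), and DESeq2 called 90 of 15545 genes (0.579%). A count of 0 among 9 genes is near this background and says little by itself, so the size of each difference is given with its interval. The log2 fold change was above 0 for 6 of the tested genes and below 0 for 3 (50.4% of all genes tested were above 0), with a median of 0.05 against 0.00 over all genes tested. The 95% interval stayed within a 2-fold change in either direction for 6 of 9 (66.7%), against 51.8% of all genes tested.

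**Figure D1:**
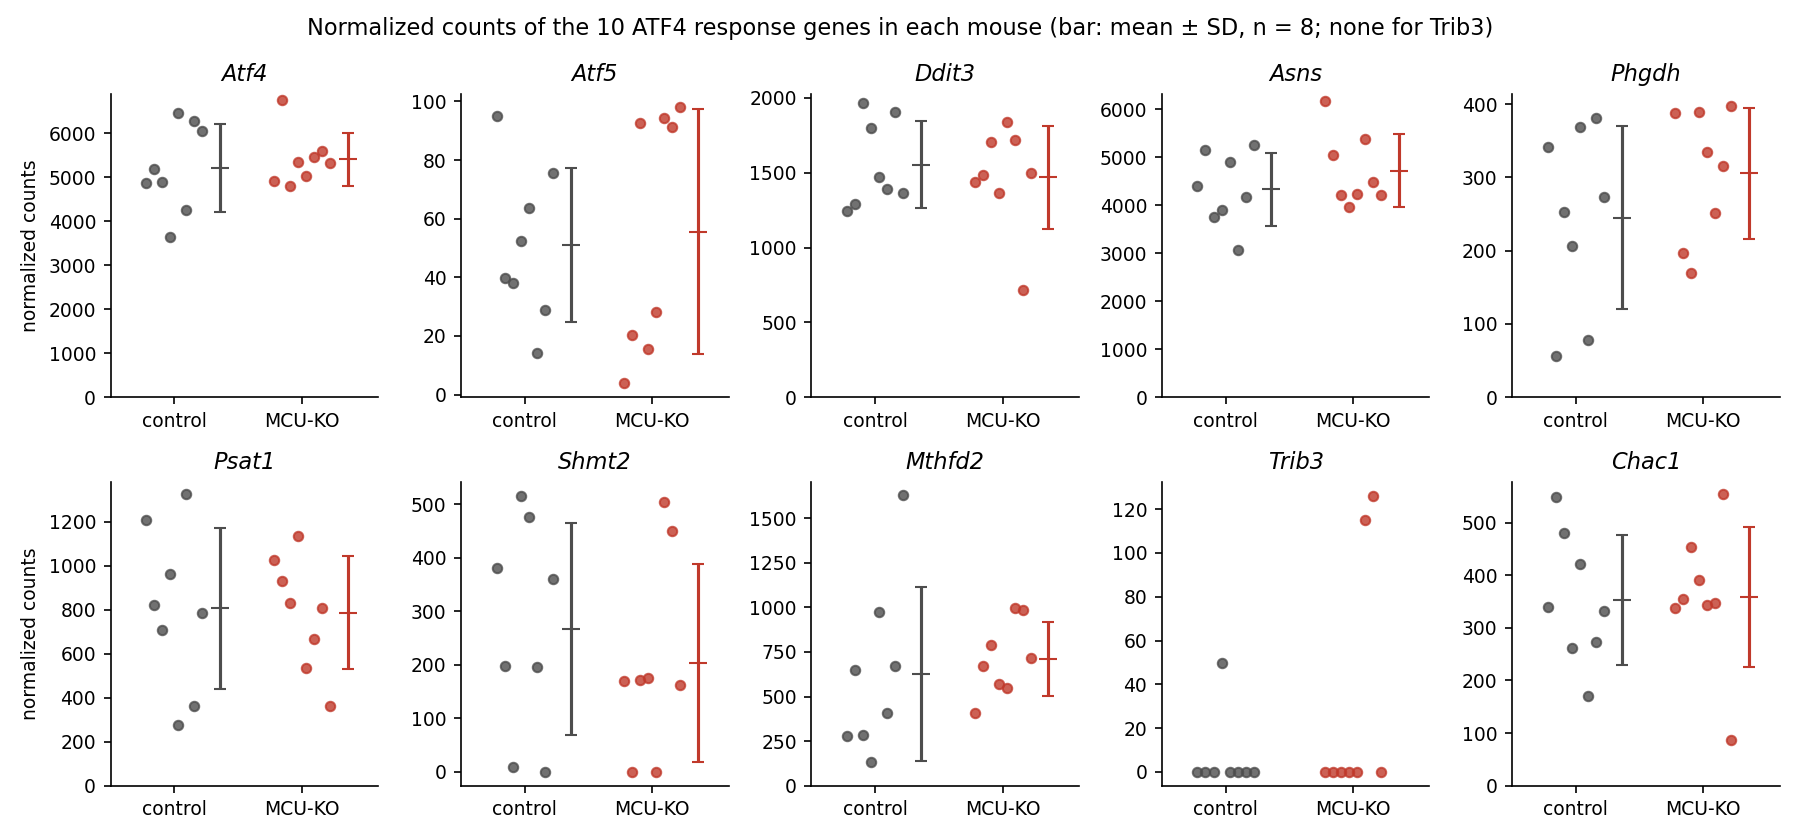
Normalized counts (vertical axis, starting at 0) of each of the 10 ATF4 response genes in 8 control mice (grey) and 8 MCU-KO mice (red), with 1 point per mouse and the mean ± SD beside the points. The groups overlap in every panel, and Trib3, drawn without a bar, is at 0 in 7 control and 6 MCU-KO mice.

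Atf4 itself (chr15:80255184-80257541, plus strand) was among the abundant messages of these libraries, above 94.0% of the genes tested in control mice. Its normalized counts had a lowest value of 3630, a median of 5040 and a highest value of 6451 in control mice, and 4802, 5338 and 6745 in MCU-KO mice. The groups overlapped, and MCU-KO mouse 2 alone was above all controls. The mean was 5203 ± 999.6 (SD, n = 8) in control and 5403 ± 608 (SD, n = 8) in MCU-KO mice, a log2 fold change of 0.05 (SE 0.12, 95% interval -0.18 to 0.29, edgeR adjusted p = 1.00). The interval spans 0.88-fold to 1.23-fold.

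Ddit3 (chr10:127290774-127296288, plus strand) encodes CHOP, the factor that carries a sustained stress response toward cell death. Its lowest, median and highest normalized counts were 1243, 1434 and 1967 in control mice and 717, 1491 and 1840 in MCU-KO mice. The ranges overlapped, and MCU-KO mouse 7 alone lay below all other mice. Its log2 fold change was -0.08 (SE 0.17, 95% interval -0.44 to 0.28, edgeR adjusted p = 1.00), or 0.74-fold to 1.21-fold. Exons of Ddit3 share 68 bases (4.0%) with Mars on the opposite strand and 105 bases (6.1%) with another gene entry of the same name, and the strand setting of the counting is not given in the sources used here.

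Atf5 (chr7:44812256-44816658, minus strand) encodes a related factor that is translated in the manner of ATF4 and has been tied to mitochondrial protein stress. It was rare, with a lowest value of 14.3, a median of 45.9 and a highest value of 95.1 normalized counts in control mice and 3.85, 59.6 and 98.0 in MCU-KO mice. The MCU-KO mice fell into 4 that were near the top of the control range and 4 that were in its lower part or, in MCU-KO mouse 1, below it. With a log2 fold change of 0.13 and a 95% interval of -1.59 to 1.84 (SE 0.82, edgeR adjusted p = 1.00), the data bound the change only to between 0.33-fold and 3.57-fold. A stretch of 82 exon bases (4.1%) is shared with Nup62 and Il4i1 on the opposite strand.

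Among the enzymes, Asns (chr6:7675169-7693254, minus strand), asparagine synthetase, is the textbook target of ATF4 in amino acid shortage. Its lowest, median and highest normalized counts were 3064, 4287 and 5266 in control and 3974, 4364 and 6177 in MCU-KO mice. MCU-KO mice 1 and 6 exceeded every control, control mice 3, 4 and 6 were below every MCU-KO mouse, and the other mice overlapped. The mean was 4331 ± 760 in control and 4721 ± 758 in MCU-KO mice (SD, n = 8 each), a log2 fold change of 0.12 (SE 0.12, 95% interval -0.12 to 0.37) that did not pass the test (edgeR unadjusted p = 0.312, adjusted p = 1.00). The interval reached from 0.92-fold to 1.30-fold.

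Phgdh and Psat1 encode the enzymes of the opening steps of serine synthesis from a glycolytic intermediate. Phgdh (chr3:98313170-98339990, minus strand) had lowest, median and highest normalized counts of 56.4, 263 and 381 in control mice and 170, 325 and 398 in MCU-KO mice. Control mice 2 and 6 were below every MCU-KO mouse, MCU-KO mice 1, 4 and 8 were above every control, and the other values overlapped. Its log2 fold change was 0.32 (SE 0.42, 95% interval -0.56 to 1.19, edgeR adjusted p = 1.00). This value is uncertain, since 47.78% of the 50-base stretches of Phgdh transcripts also occur in 23 other annotated genes, 933 of the 1163 shared stretches in Gm7901, and reads from there may have been split or dropped in counting. Psat1 (chr19:15904678-15947337, minus strand) had values of 278, 804 and 1329 in control and 364, 820 and 1135 in MCU-KO mice, with all MCU-KO mice inside the control range. On the log2 scale the difference was -0.03 (SE 0.30, 95% interval -0.65 to 0.59, edgeR adjusted p = 1.00).

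Shmt2 and Mthfd2 are the mitochondrial enzymes that take one-carbon units from serine, and Mthfd2 is among the transcripts that rise early in mitochondrial myopathy. Mthfd2 (chr6:83305691-83325908, minus strand) had lowest, median and highest normalized counts of 132, 526 and 1629 in control and 411, 694 and 999 in MCU-KO mice. The MCU-KO mice all lay within the control range, and the controls were more widely spread, with a coefficient of variation of 77.5% against 29.2%. Its log2 fold change was 0.18 (SE 0.38, 95% interval -0.61 to 0.97, edgeR adjusted p = 1.00). Without control mouse 8, the highest of all mice, it was 0.56, without control mouse 4, the lowest, it was 0.03, and with the astrocyte score as a covariate it was 0.59, none of which passed the test.

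Shmt2 (chr10:127517123-127522444, minus strand) was irregular in both genotypes. Its lowest, median and highest normalized counts were 0, 279 and 515 in control and 0, 170 and 505 in MCU-KO mice. No read was counted in control mouse 7 or in MCU-KO mice 2 and 5, although other mice of either group reached 592 and 557 reads. The log2 fold change of -0.38 had an SE of 1.02 and a 95% interval of -2.50 to 1.74 (edgeR adjusted p = 1.00) and so spanned 0.18-fold to 3.34-fold.

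Of the regulators, Chac1 (chr2:119351229-119354381, plus strand) encodes an enzyme that degrades glutathione and is among the most responsive targets of the ATF4 and CHOP pair. Its lowest, median and highest normalized counts were 170, 336 and 548 in control and 87.0, 351 and 554 in MCU-KO mice. The medians lay close together, with MCU-KO mouse 8, the library of fewest reads, below all others. The difference on the log2 scale was 0.02 (SE 0.35, 95% interval -0.71 to 0.76, edgeR adjusted p = 1.00).

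Trib3 (chr2:152337422-152344032, minus strand), a pseudokinase that is induced by ATF4 and CHOP and restrains Akt signalling, was counted in few mice. It had 0 reads in 7 of 8 control mice and in 6 of 8 MCU-KO mice. In the remaining mice it had 57 reads in control mouse 4, 127 in MCU-KO mouse 6 and 130 in MCU-KO mouse 7, or 49.6, 115 and 126 normalized counts. It therefore had reads in too few mice for the test. When all genes were tested without a filter on low counts, its unadjusted p in edgeR's quasi-likelihood test was 0.308 and its adjusted p 0.876. These 2 MCU-KO mice, 6 and 7, were also the highest of their group for Mthfd2 (999 and 984 normalized counts, next 789) and for Shmt2 (505 and 450, next 175). They were apart for Ddit3 (1716 and 717) and Chac1 (347 and 554), where mouse 7 was the lowest and the highest of the group. Control mouse 4, the other mouse with Trib3 reads, was the lowest control for Mthfd2 (132 normalized counts) and for Atf4 (3630). For Shmt2 it was the highest control (515). Being picked for their Trib3 reads, these mice were not tested. MCU-KO mouse 6 also had the highest sum of endothelial markers of its group (64.5 CPM) and of markers of other neurons (385 CPM), and their part in these values was not tested.

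**Figure D2:**
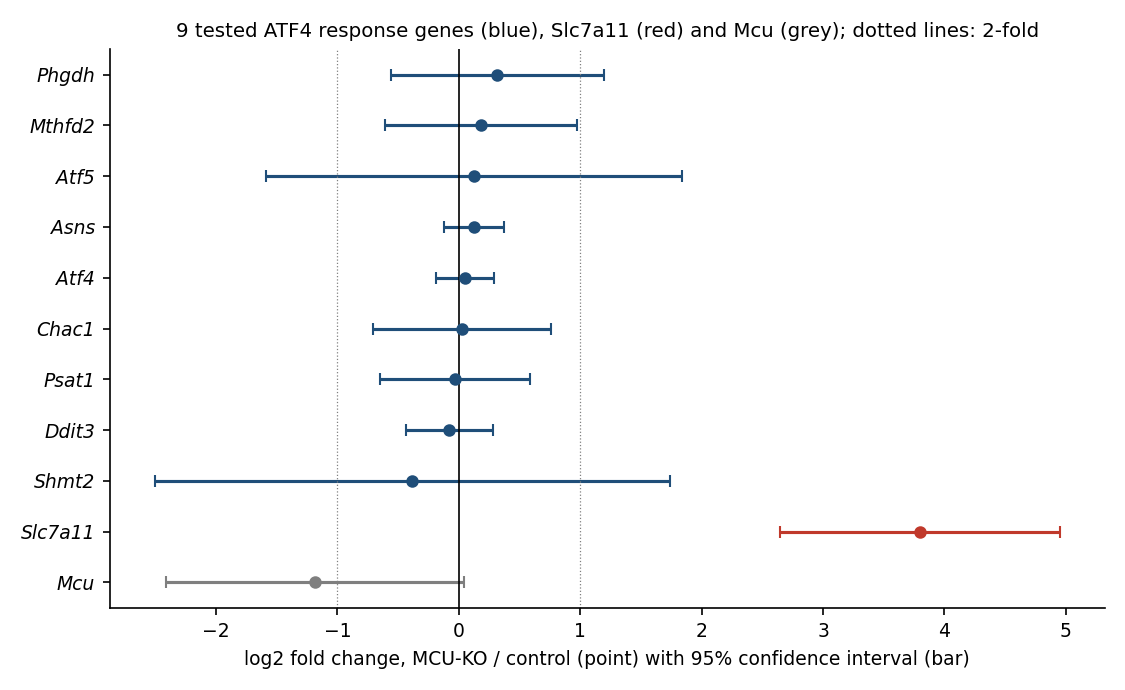
Log2 fold change of MCU-KO over control with its 95% interval for the 9 ATF4 response genes that were tested (blue), for Slc7a11 (red) and for Mcu (grey), with dotted lines at a 2-fold change. All 9 blue intervals cross 0, and those of Atf4, Ddit3, Asns, Psat1, Mthfd2 and Chac1 stay inside the dotted lines.

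Levels per length of transcript ordered the genes in the control libraries, which also held RNA of other cells. On the scale of CPM per kilobase of exon, the level of Atf4 was 115 ± 22.2 (SD, n = 8), that of Asns 82.3 ± 14.4 and that of Ddit3 47.2 ± 8.84. In each of the 8 control mice Atf4 stood above Asns and Asns above Ddit3, and the range of Ddit3 did not overlap that of Chac1, the next gene. Chac1 (11.2 ± 3.94), Psat1 (9.86 ± 4.49) and Mthfd2 (9.36 ± 7.25) did not separate beyond their spread, each being above the next in 5 of 8 mice. Phgdh (5.12 ± 2.62) and Shmt2 (4.45 ± 3.30) did not separate either, with Phgdh above Shmt2 in 3 of 8 mice. Atf5 (1.33 ± 0.68) and Trib3 (0.15 ± 0.43) closed the order. Atf4, Asns and Ddit3 thus had the highest levels, and in MCU-KO mice their levels, 119 ± 13.5, 89.7 ± 14.3 and 44.6 ± 10.4, kept that order of means.

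**Figure D3:**
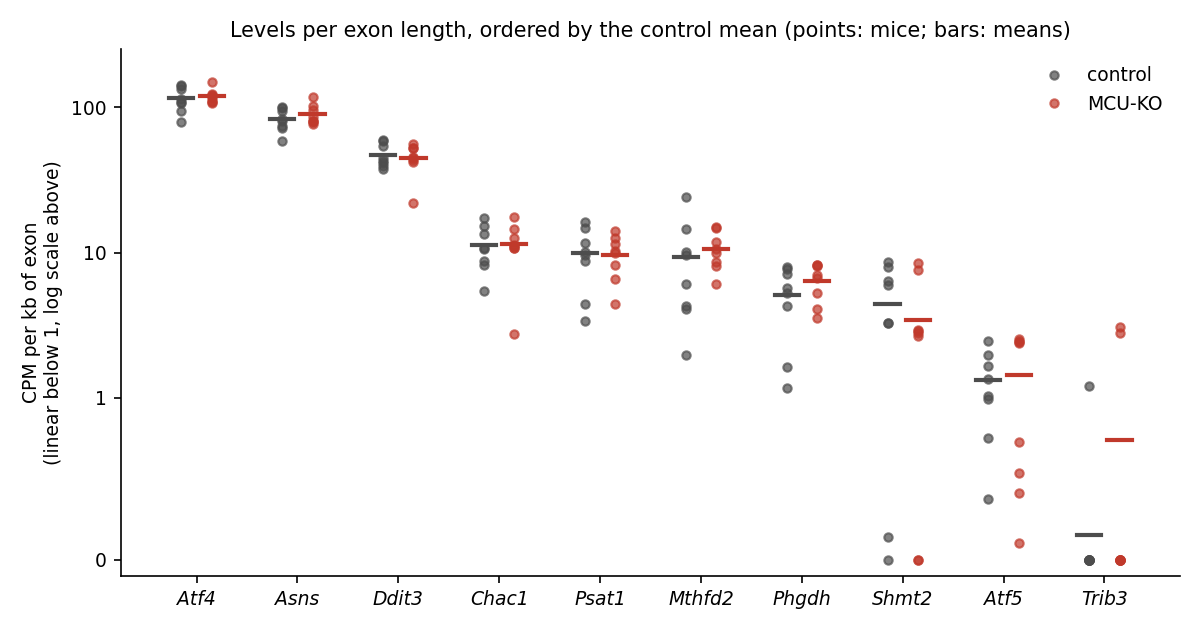
Levels of the 10 genes in CPM per kilobase of exon, for control and MCU-KO mice, with 1 point per mouse and a bar at each mean, on an axis that is linear below 1 and logarithmic above. Within each genotype Atf4, Asns and Ddit3 stand apart from the rest, and Trib3 is at 0 in most mice. Across genotypes, Ddit3 in MCU-KO mouse 7 (21.83) is below Mthfd2 in control mouse 8 (24.25).

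The mice of each genotype varied around their mean, and the genes were compared with Atf4 in that variation, as the correlation of log2 CPM over the 16 mice after each genotype's mean was taken out. These correlations are descriptions, since all genes of a mouse share 1 library, its depth and its mix of cells. Mthfd2 followed Atf4 most closely, with Pearson's r of 0.763 and Spearman's rho of 0.721, and stood 14th of the 10609 other genes with at least 100 normalized counts on average. The relation was stronger in control mice (r = 0.866, n = 8) than in MCU-KO mice (r = 0.285, n = 8), a difference that was not tested, and fell to 0.568 without the 2 mice farthest from the median of Atf4, control mice 4 and 5. Asns had r = 0.463, or 0.417 without those mice, and stood 588th. Phgdh (0.286), Chac1 (0.221) and Atf5 (0.101) were weakly related to Atf4, while r was -0.147 for Ddit3, -0.312 for Shmt2 and -0.499 for Psat1. Within control and MCU-KO mice taken apart, the sign differed for Psat1 (-0.748 and 0.172) and Phgdh (0.424 and -0.289). It was the same for the other genes, though Asns had 0.633 and 0.106. For Shmt2, Spearman's rho over the 16 mice was only -0.0118. These differences were not tested. The 5 genes most like Atf4 were Lyar (0.813), H2-DMa (0.812), Vti1b (0.811), Mccc2 (0.801) and Rnf19b (0.797), none of them on the lists of the stress response.

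**Figure D4:**
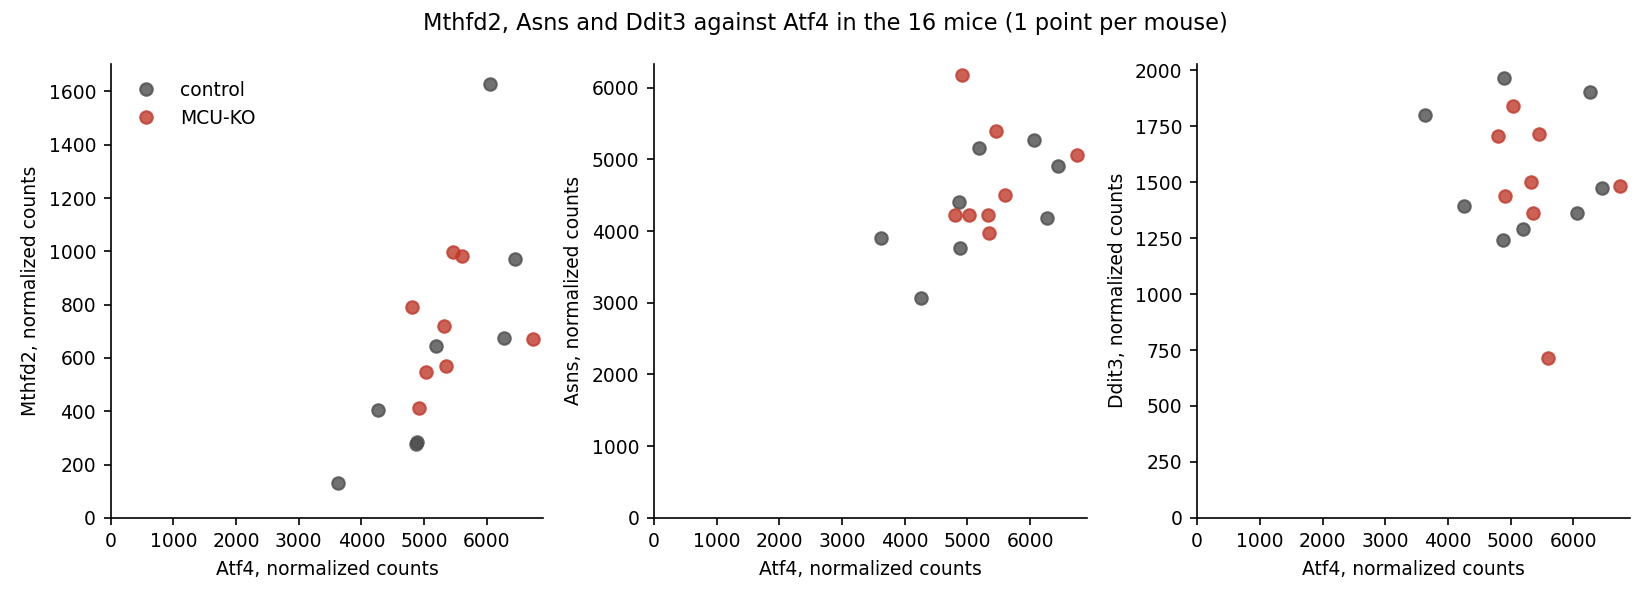
Normalized counts of Mthfd2, Asns and Ddit3 (vertical axes) against those of Atf4 (horizontal axes) in 8 control mice (grey) and 8 MCU-KO mice (red), with 1 point per mouse. Mthfd2 is lowest in control mouse 4, which is also lowest for Atf4, and Ddit3 shows no such order.

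The rest of the pathway was read from 7 lists with 105 genes in all, of which 95 were tested. One of the 95, Slc7a11, passed the threshold (against 0.178% of all genes), 4 had an unadjusted p under 0.05 (against 4.41%), and the log2 fold change was above 0 for 41 and below 0 for 54, with a median of -0.04. The 95% interval stayed within a 2-fold change for 65 of the 95 genes (68.4%).

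The transporter list held the called gene. Slc7a11 (chr3:49892526-50443614, minus strand), the light chain that carries cystine into the cell in exchange for glutamate, had a lowest value of 2.77, a median of 58.4 and a highest value of 116 normalized counts in control mice, and 523, 763 and 962 in MCU-KO mice. Every MCU-KO mouse was above every control. The log2 fold change was 3.80 (SE 0.55, 95% interval 2.65 to 4.95, edgeR adjusted p = 7.67e-04), a 13.9-fold difference. This gene was already known to differ in these data when the lists were drawn up, so its call is no independent evidence about the response. None of the other 10 tested carriers passed, and the list's median was -0.06. The neuronal glutamine carrier Slc38a1, next by p, had 7315 ± 1337 normalized counts in control and 6392 ± 1060 in MCU-KO mice (SD, n = 8 each), a log2 fold change of -0.19 with a 95% interval of -0.45 to 0.06, and the lysosomal Slc38a7 had -0.55 (95% interval -1.46 to 0.36).

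Upstream of ATF4, 0 of the 16 genes for the eIF2 kinases, eIF2, its exchange factor, its phosphatases and the mitochondrial relay of Oma1 and Dele1 passed the test, and their median was 0.04. Eif2ak2, the kinase PKR that is activated by double-stranded RNA, had 141 ± 71.2 normalized counts in control and 403 ± 205 in MCU-KO mice (SD, n = 8 each). The groups overlapped, with control values of 46.2 to 239 and MCU-KO values of 105 to 773. Its log2 fold change of 1.52 (SE 0.46, 95% interval 0.56 to 2.47) had an unadjusted p of 0.00333 in edgeR's quasi-likelihood test and an adjusted p of 0.615, so it did not pass. DESeq2's Wald test gave an adjusted p of 0.0719, also above the threshold. Eif2ak4, the amino acid sensor GCN2, had a log2 fold change of -0.68 (95% interval -1.68 to 0.32), and Eif2b4, a subunit of the eIF2 exchange factor, had -0.28 (95% interval -0.70 to 0.15).

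Of the 13 partner factors of ATF4, 11 were tested, 0 passed, and the median was -0.10. Jund, an AP-1 subunit, had the smallest p of the list, with 2882 ± 781 normalized counts in control and 2255 ± 228 in MCU-KO mice (SD, n = 8 each) and a log2 fold change of -0.35 (95% interval -0.68 to -0.03, edgeR unadjusted p = 0.0327, adjusted p = 1.00). Atf6, a sensor of protein folding in the endoplasmic reticulum, had -0.46 (95% interval -1.35 to 0.43) and Atf2 had 0.15 (95% interval -0.30 to 0.60). Atf3, a factor induced in many kinds of stress, was at 0 in 5 control and 4 MCU-KO mice and reached 242 and 177 reads in the others, and was not tested.

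The aminoacyl-tRNA synthetases, which ATF4 raises together in amino acid shortage, gave 0 calls of 13 tested genes, 8 log2 fold changes above 0 and a median of 0.12. Gars, for glycine, and Aars, for alanine, had log2 fold changes of 0.34 (95% interval -0.00 to 0.68, edgeR unadjusted p = 0.0524, adjusted p = 1.00) and 0.32 (95% interval -0.02 to 0.65, edgeR unadjusted p = 0.0605, adjusted p = 1.00). Tars, for threonine, had -0.53 (95% interval -1.45 to 0.39). The interval stayed within a 2-fold change for 12 of the 13 synthetases (92.3%).

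Among the 20 other enzymes of serine, proline and one-carbon metabolism, 17 were tested and 0 passed, with a median of 0.06. Aldh1l1, a folate enzyme that is also one of the 14 astrocyte markers, had a log2 fold change of 0.82 (95% interval -0.22 to 1.86). Amt, of the glycine cleavage system, had -1.50 (95% interval -3.62 to 0.61), and Pycr3, of proline synthesis, had -0.25 (95% interval -0.65 to 0.14).

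The secreted signals of mitochondrial stress were at or near 0. Fgf21 was at 0 in all 16 mice, and so was the secreted peptide gene Adm2. Gdf15 was at 0 in 7 mice of each genotype, with 6 reads in the remaining control mouse and 28 in the remaining MCU-KO mouse. Of the 14 mitokines and other targets, 10 were tested, 0 passed, and 8 had a log2 fold change below 0, with a median of -0.09. The death receptor gene Tnfrsf10b had -1.38 (95% interval -3.82 to 1.05), the ubiquitin ligase adaptor Klhl24 had -0.35 (95% interval -0.98 to 0.28), and the autophagosome protein gene Map1lc3b, abundant at 5478 ± 681 and 5036 ± 806 normalized counts (SD, n = 8 each), had -0.12 (95% interval -0.35 to 0.10).

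The neighbouring programme of the endoplasmic reticulum, run by ATF6 and XBP1, gave 0 calls of 17 tested genes and a median of -0.05, with 12 log2 fold changes below 0. The chaperone gene Calr had a log2 fold change of 0.27 (95% interval 0.01 to 0.52, edgeR unadjusted p = 0.0401, adjusted p = 1.00), the co-chaperone Dnajb11 had -0.32 (95% interval -0.66 to 0.02), and Xbp1 had -0.22 (95% interval -0.53 to 0.10). The interval stayed within a 2-fold change for 16 of these 17 genes.

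**Figure D5:**
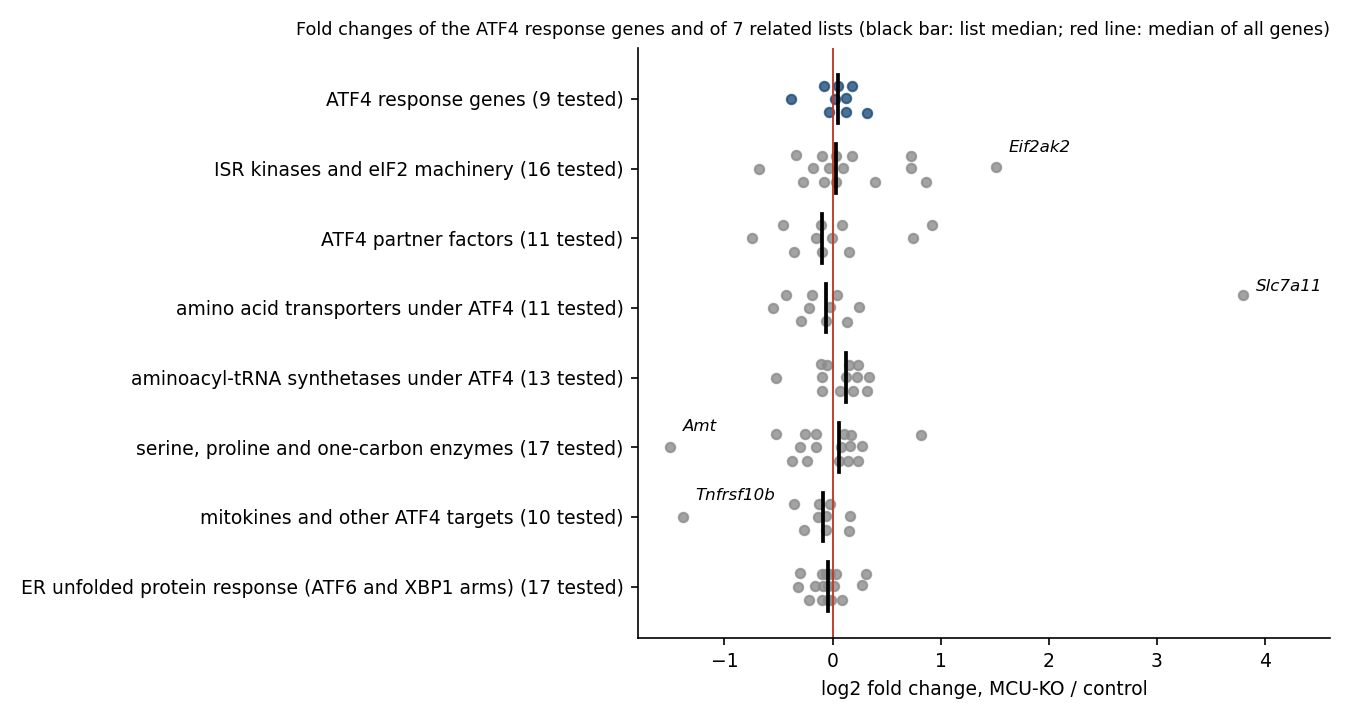
Log2 fold change of MCU-KO over control (horizontal axis) for each tested gene of the ATF4 response (blue) and of 7 related lists (grey), with a black bar at each list's median and a red line at the median of all genes tested. The medians lie between -0.10 and 0.12, and Slc7a11 at 3.80 stands apart from every other point.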

How the data were processed

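Ribosome-bound polyA RNA was sequenced from 16 mice, grouped by the genotype in the labels. Reads were trimmed, aligned to mm10 and counted per gene by the authors (Trim Galore, STAR and HTSeq in the submitters' processing notes), and the deposited files hold raw read counts per Ensembl gene. Tool versions, the Ensembl release and the strand setting are not given in the sources used here. Symbols (24991 of 25006 genes) and coordinates came from GENCODE annotation of GRCm38, the same build. No row lacked a gene identifier and no pair of libraries was identical.

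Counts of all genes were filtered with filterByExpr, scaled by TMM and tested with edgeR 4.0.16 (quasi-likelihood, genotype only, R 4.3.3), with Benjamini-Hochberg adjustment over the 12390 genes kept and a threshold of 0.05. Normalized counts are counts divided by each library's DESeq2 size factor (a median of ratios over genes). CPM values (counts scaled to a common library size) use the TMM factors instead. Intervals are 95%. The study's methods used DESeq2, which was run as an alternative (version 1.42.0), with limma-voom (limma 3.58.1), other scalings and filters, a replicate block, an astrocyte covariate and the removal of each mouse. The procedure was tested on simulated data. Each mouse is 1 library, and no batch is given in the labels.

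The 10 genes and the 7 lists were chosen with earlier results of these data known. Named beside the 10 genes are Mcu, the called genes and the 3 genes of smallest p in each list, and the 5 genes most like Atf4. Untested genes were named after their values were seen. The study's text counts more MCU-KO mice than the 8 analysed here.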

Additional observations from a re-analysis of the deposited data

Results flagged for a closer look

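Single mice stood apart from the other 7 of their genotype in 8 of the 40 sets of values examined with Dixon's test, where chance gives about 1 in 20, or 2. Of these, 4 were values of the ATF4 response genes. Atf4 was at 6745 normalized counts in MCU-KO mouse 2, against 5603 in the next. Ddit3 was at 717 in MCU-KO mouse 7, against 1364 in the next. Trib3 was at 49.6 in control mouse 4 and at 0 in the other control mice, which fixed the outcome of Dixon's test in advance, so this set adds nothing to the count. Chac1 was at 87.0 in MCU-KO mouse 8, against 337 in the next. The same MCU-KO mouse 8 had the smallest library, with 14129527 counts against 19897268 in the next.

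The remaining sets were marker sums. Endothelial markers summed to 64.5 CPM in MCU-KO mouse 6, against 36.8 in the next, and markers of other neurons to 385 in the same mouse, against 244, and to 288 in control mouse 3, against 210. No ATF4 response gene passed the test with any of these mice left out.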

How the results depend on the processing

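In each of 24 alternatives, 8 of them other settings and 16 the removal of 1 mouse, 0 of the ATF4 response genes passed the threshold and 0 had an unadjusted p under 0.05, and their median log2 fold change ran from -0.02 to 0.11. Over all genes, 22 calls became 90 with DESeq2, 14 with the replicate block and 18 to 24 without single mice. Slc7a11 was the called gene of the 7 lists in 23 of the alternatives, and with at least 10 counts required in every mouse 0 were called, because that filter removes Slc7a11. Eif2ak2 had adjusted p-values from 0.0719 (DESeq2's Wald test) to 0.9998 (edgeR's quasi-likelihood test without MCU-KO mouse 6). With the astrocyte covariate its log2 fold change was 1.19, against 1.52 without it.

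Small changes turned sign. With limma-voom the log2 fold change was -0.25 for Atf5, 0.12 for Psat1 and 0.081 for Shmt2. With the replicate block it was -0.18 for Atf5, 0.055 for Psat1 and -0.018 for Chac1, and the block changed no call among the 10 genes. Same-numbered mice did not deviate together (r from -0.06 to 0.03 over 8 pairs, 0 of 8 control mice matching best with their own number). Whether they shared a step of preparation is not given in the labels and was not tested. Without single mice the value ran from -0.0058 to 0.11 for Atf4, -0.036 to 0.32 for Atf5, -0.13 to 0.020 for Ddit3, -0.16 to 0.11 for Psat1 and -0.10 to 0.17 for Chac1. The cause of these turns was not tested. Trib3 had reads in too few mice to test, and the spread between mice left Shmt2 and Atf5 loosely bounded.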
